A study of Mus musculus with 9 samples.

Results

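Interferon-stimulated genes are the genes that cells switch on after interferon binds its receptors. A list of 37 of them was followed here in innate lymphoid cells (ILCs) from mouse skin. Its members were chosen by name, with earlier results of these data known. The array's annotation gave 34 of the 37 a probe set of their own, out of 19752 genes so named, and 28 of these were bright enough to be tested. Isg15 and Gbp2 were listed only on sets shared with another gene symbol, so no value was assigned to them, and Ifi44 had no set under its name. Irf1 had 2 sets, and the one with the higher mean stood for it.

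The cells came from female B6 mice that carry EGFP at 1 Ccr10 allele, in Rag1-/- CCR10+/EGFP mice and in CCR10+/EGFP mice whose Rag1 is unmutated (Rag1-sufficient). CD45.2+ CD3- lineage-negative skin cells were sorted by green fluorescence, which reports the chemokine receptor gene Ccr10, and 1 array was hybridised per sorted sample. There were 2 Rag1-/- GFP+, 3 Rag1-/- GFP-, 2 Rag1-sufficient GFP+ and 2 Rag1-sufficient GFP- arrays. All 4 groups carry the reporter allele, ages are not stated, and nothing in the labels ties a replicate to an animal of its own. The p-values therefore reflect only how far these samples differ, and that spread may be technical. The 7 general ILC markers, among them Id2, Il7r and Gata3, read between 906 and 7905 intensity units on every array. Array medians lay between 74.1 and 77.6.

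Type I interferons signal through the receptor chains Ifnar1 and Ifnar2 and act through STAT2 and IRF9 at the interferon-stimulated response element in target promoters. Interferon-gamma signals through Ifngr1 and Ifngr2 and acts at gamma-activated sites. The targets sense foreign nucleic acids, block viral replication and entry, or feed back on the pathway, and ILCs both respond to interferons and, in the type 1 lineage, make interferon-gamma.

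The promoters of 28 of the 37 genes were available from RefSeq (GRCm38.p6), as windows of 300 bases that run from 250 bases before the transcription start to 50 after it. The core of the interferon-stimulated response element was searched as GAAA, any 2 bases and GAAA again, on both strands. It occurred at least once in 15 of the 28 genes (53.6%), against 3.99% of all 27025 genes in the table. The gamma-activated site was searched as TTCNNNGAA, which reads the same on both strands and can overlap the first motif. It occurred in 9 of the 28 genes (32.1%), against 9.55% of all genes. The 3 promoters printed here belong to members that stand out in the array values: Stat2 for its differences between groups, and Ifit1 and Ifitm3 as the tested members whose highest and lowest arrays were more than 2-fold apart. Capitals mark matches to the response element core in either orientation, and each sequence is given 5′ to 3′ along its gene.
Stat2, chr10:128270248-128270547, plus strand: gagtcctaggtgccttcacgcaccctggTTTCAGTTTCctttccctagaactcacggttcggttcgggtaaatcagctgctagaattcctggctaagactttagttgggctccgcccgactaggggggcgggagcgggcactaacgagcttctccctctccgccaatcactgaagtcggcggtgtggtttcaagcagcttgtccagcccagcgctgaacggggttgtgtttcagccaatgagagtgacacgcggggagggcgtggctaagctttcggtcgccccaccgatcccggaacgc
Ifit1, chr19:34640639-34640938, plus strand: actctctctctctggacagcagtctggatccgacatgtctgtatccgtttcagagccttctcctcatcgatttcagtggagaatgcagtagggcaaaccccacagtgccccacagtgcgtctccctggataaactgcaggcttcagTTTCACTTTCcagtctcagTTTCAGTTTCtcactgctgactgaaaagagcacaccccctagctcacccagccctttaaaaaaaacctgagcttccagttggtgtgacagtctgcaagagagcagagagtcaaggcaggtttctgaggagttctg
Ifitm3, chr7:141010695-141010994, minus strand: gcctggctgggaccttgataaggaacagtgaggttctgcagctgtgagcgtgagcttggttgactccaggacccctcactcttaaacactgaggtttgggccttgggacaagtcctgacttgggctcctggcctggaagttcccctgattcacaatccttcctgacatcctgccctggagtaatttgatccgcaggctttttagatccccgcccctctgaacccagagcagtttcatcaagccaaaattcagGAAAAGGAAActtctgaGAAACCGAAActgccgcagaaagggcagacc
The match in Stat2 begins 222 bases before the start, those in Ifit1 begin 104 and 85 bases before it, and those in Ifitm3 begin 2 and 19 bases after it. Such a match is a description of the sequence and no evidence of binding in these cells.

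The interferon-stimulated genes varied little across the 4 groups, and no member passed the test in any comparison. Differences are given on the log2(intensity + 1) scale with their standard error (SE), and comparisons that use the same group share its arrays. Of the 34 measured members 4 (Ifit2, Mx1, Mx2 and Gbp5) stayed under 41.6 on every array, the limit below which the dimmest 30% of probe sets were left out. Spans from lowest to highest array were under 2-fold for 26 of the 28 tested members and for 85.5% of all 17445 probe sets tested. The median span was 1.49-fold for these members, against 1.44-fold over all these sets. Signals of different probe sets are not comparable with each other, so only differences between arrays are read for each gene. In bulk samples, fewer cells that express a gene and less RNA per cell cannot be told apart.

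**Figure D1:**
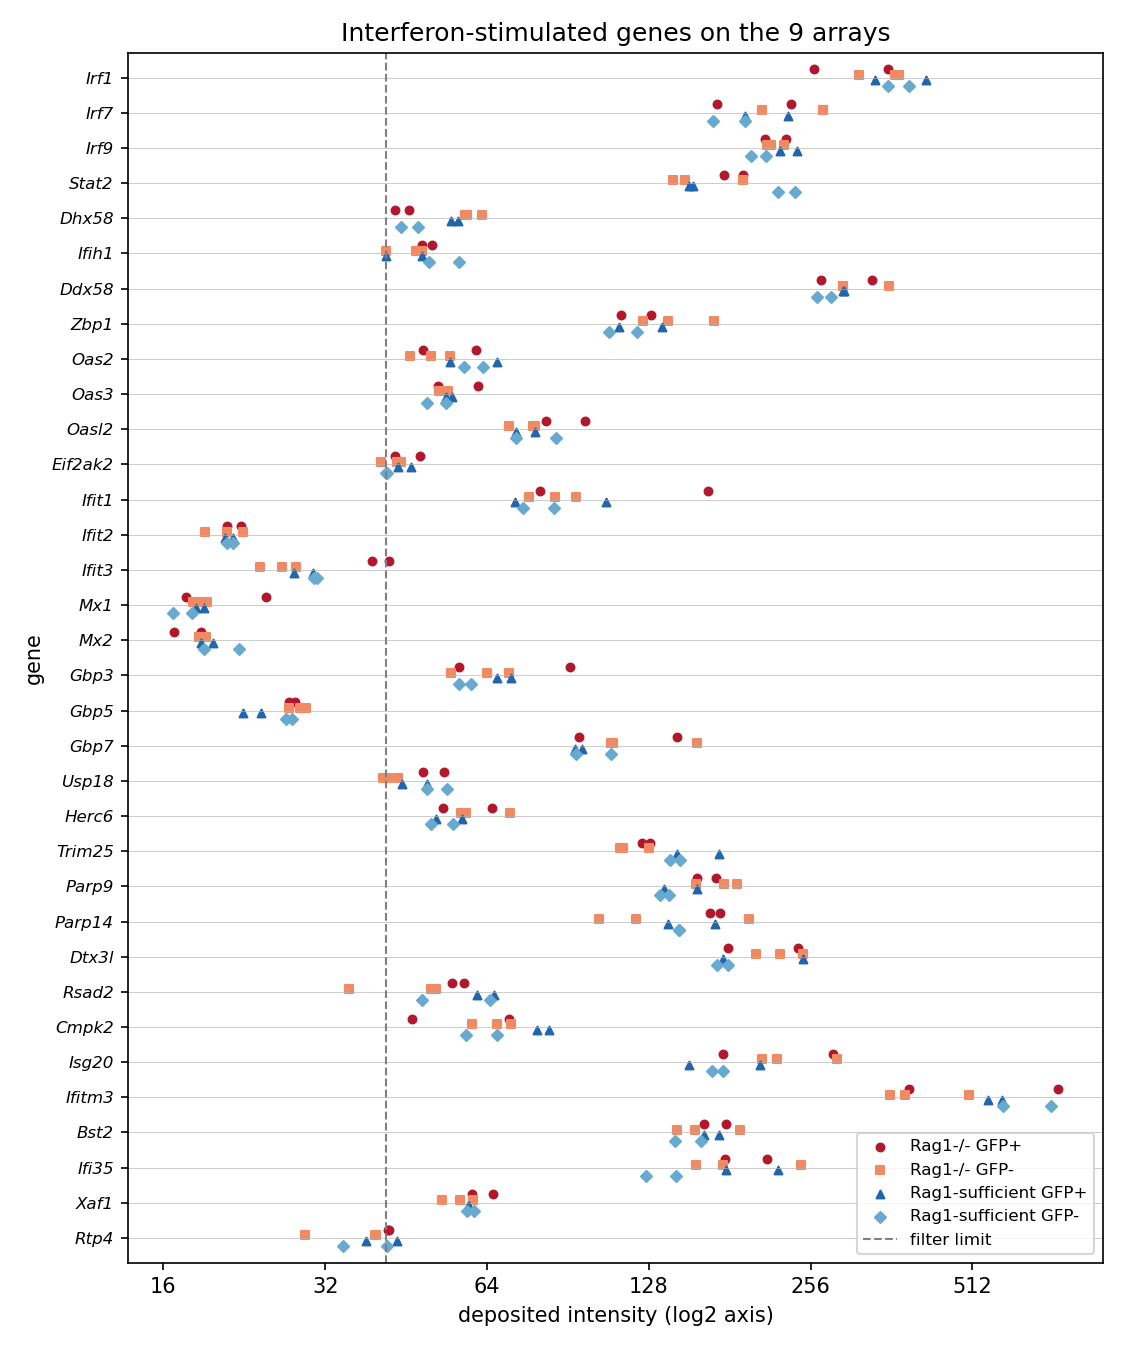
Deposited intensity (log2 axis) of the 34 measured interferon-stimulated genes, ordered by role, with 1 point per array and a colour and marker for each of the 4 groups; the dashed line is the filter limit of 41.6. Groups lie apart in single comparisons for many genes, among them Stat2, Dhx58 and Trim25, and 1 Rag1-/- GFP+ array stands apart for Ifit1 at 165. In GFP- cells the genotypes do not overlap for 35.7% of tested members as higher in Rag1-/- cells and 21.4% as lower. The shares of all sets are 23.0% and 17.6%.

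Between the sorted fractions of Rag1-/- mice, 0 of 28 members passed at an adjusted p of 0.05 (limma with Benjamini-Hochberg adjustment), as did 0% of all probe sets. At an unadjusted p under 0.05 there were 2 members, 1 higher and 1 lower, or 7.14% of the members against 6.29% of all sets. The median log2 difference was 0.08 for the members and -0.01 for all sets, with members between -0.42 and 0.44. Without Rag1-/- GFP+ replicate 2 the members' median was -0.08. The arrays of the 2 groups did not overlap for 3 members that were higher (5.27% of all sets) and 1 that was lower (10.1%).

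Between the fractions of Rag1-sufficient mice, 0 of 28 members passed, against 0.803% of all sets. At an unadjusted p under 0.05, 2 were higher and 1 was lower in GFP+ cells, or 10.7% against 13.0% of all sets. The median difference was 0.10, against 0.01 for all sets. Arrays did not overlap for 9 higher members (29.0% of all sets) and 3 lower ones (21.2%).

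Among GFP+ cells, 0 of 28 members passed between Rag1-/- and Rag1-sufficient mice, against 0.246% of all sets. At an unadjusted p under 0.05, 3 were lower and 0 higher in Rag1-/- cells, or 10.7% of the members against 6.82% of all sets. The median difference was 0.02, against -0.02 for all sets, and it was -0.09 without Rag1-/- GFP+ replicate 2. Arrays did not overlap for 3 higher members (11.0% of all sets) and 4 lower ones (18.5%).

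Among GFP- cells, 0 of 28 passed between the genotypes, against 0.143% of all sets, and this comparison held the most unadjusted calls: 4 members higher and 4 lower in Rag1-/- cells, or 28.6% of the members, against 17.3% of all sets. The higher members were Dhx58, Parp9, Irf7 and Ifi35, and the lower ones Stat2, Usp18, Trim25 and Ifitm3. The median difference was 0.08, against 0.00 for all sets, and members lay between -0.65 and 0.48. Arrays did not overlap for 10 higher members (23.0% of all sets) and 6 lower ones (17.6%).

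Averaged over genotypes, GFP+ against GFP- cells gave 0 members at either threshold, where 0.212% of all sets passed the adjusted and 7.38% the unadjusted one. Arrays did not overlap for 0 members in either direction, against 0.235% of all sets higher and 1.08% lower. Averaged over fractions, Rag1-/- against Rag1-sufficient cells gave 0 members at the adjusted threshold (0.0860% of all sets) and 3 at the unadjusted one, or 10.7% against 9.84%. Arrays did not overlap for 0 higher members (1.32% of all sets) and 1 lower one (1.66%). The interaction, which asks whether the fraction difference depends on genotype, gave 0 members and 0% of all sets at the adjusted threshold, and 5 members (17.9%) against 13.6% of all sets at the unadjusted one.

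The design could still miss changes of moderate size. The median half-width of the members' 95% interval was 0.34 in the Rag1-/- fraction comparison and 0.37 in the Rag1-sufficient one, on the log2 scale. Across the 4 comparisons of single groups, the intervals of individual members reached from -1.27, for Ifitm3, to 1.09, for Ifit1. In data simulated for Rag1-/- against Rag1-sufficient GFP+ cells over 17445 probe sets, changes of 0.5 were called in 14.9%, changes of 1 in 77.3% and changes of 2 in 98.2% of changed sets.

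**Figure D2:**
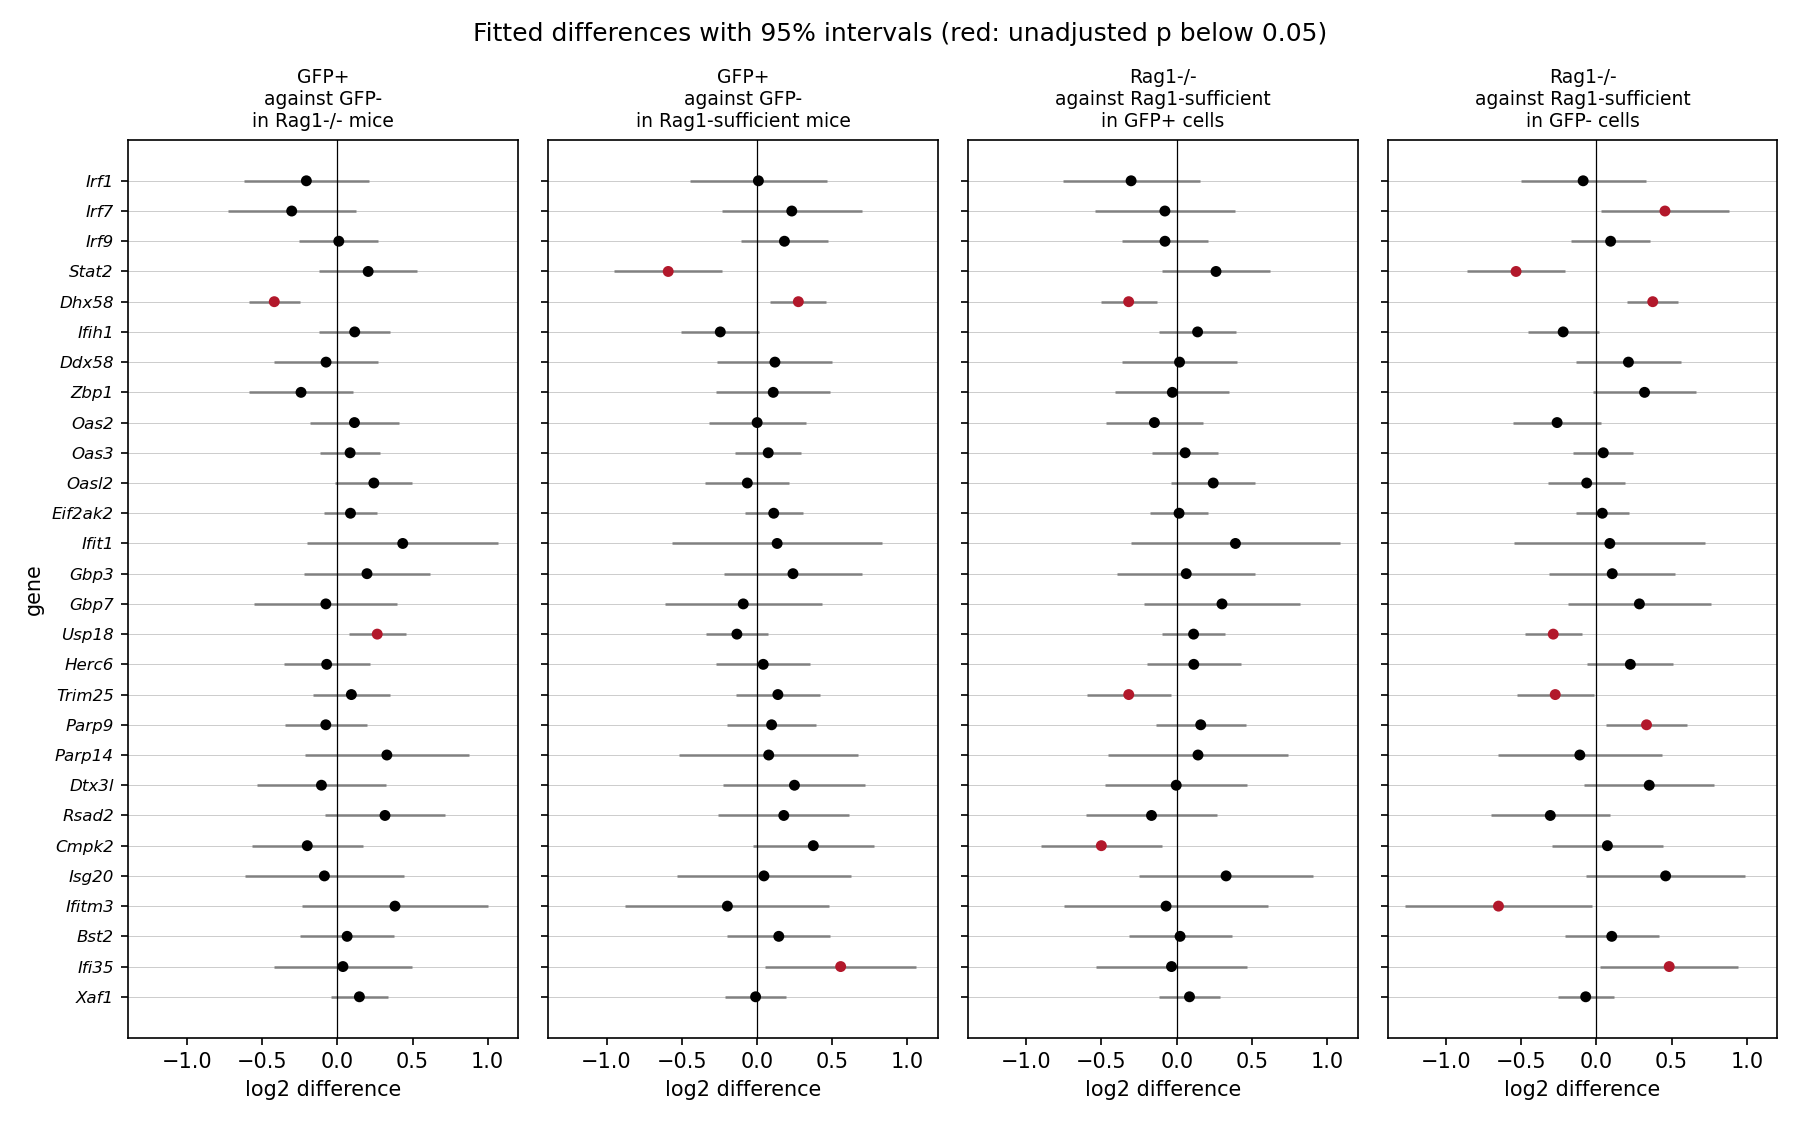
Fitted log2 differences (points) with 95% intervals (lines) for the 28 tested interferon-stimulated genes in the 4 comparisons of single groups; red marks an unadjusted p under 0.05. No member passes after adjustment, and the GFP- genotype panel holds 8 red points that lie on both sides of 0.

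Among the transcription factors, Stat2, the signalling partner that carries type I interferon responses to the nucleus, held the largest differences between groups. It read 192 and 176 on the Rag1-/- GFP+ arrays, 191, 149 and 142 on the Rag1-/- GFP- arrays, 152 and 155 on the Rag1-sufficient GFP+ arrays, and 223 and 240 on the Rag1-sufficient GFP- arrays. The Rag1-sufficient GFP- arrays were above all 7 others. Within Rag1-sufficient mice the difference of GFP+ from GFP- cells was -0.59 ± 0.16 (SE), with an adjusted p of 0.159 in limma. Among GFP- cells Rag1-/- differed from Rag1-sufficient by -0.53 ± 0.14 (adjusted p = 0.169, limma), and the interaction was 0.80 ± 0.21 (adjusted p = 0.251, limma). With arrays weighted by their agreement with the model, the first of these had an adjusted p of 0.0178 and the second one of 0.0268 in limma.

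The summed markers of several other cell types were, like Stat2, highest on both Rag1-sufficient GFP- arrays. The summed intensity of 11 mast cell markers was 907 to 989 on the Rag1-sufficient GFP+ arrays and 10373 to 10538 on the GFP- arrays, and 6 of the 8 markers tested passed as lower in GFP+ cells. In Rag1-/- mice the sums were 1350 to 4849 in GFP+ and 4758 to 6089 in GFP- cells. No marker of any list was at 0, also in the neutrophil list, where 5 of 6 markers stayed under the filter limit on every array. A reading above 0 is therefore no sign of expression. The 8 keratinocyte markers summed to at most 1132 on the other 7 arrays and to 1248 and 2523 on the Rag1-sufficient GFP- arrays. The 10 macrophage and monocyte markers summed to at most 538 on the other 7 and to 601 and 671 on the Rag1-sufficient GFP- arrays. The 6 plasmacytoid dendritic cell markers summed to at most 867 on the other 7 and to 980 and 941 on the Rag1-sufficient GFP- arrays. Not all 6 followed their sum. Tcf4 read 285 and 265 on these arrays and 127 to 221 on the others. Bst2, itself a member of the interferon list, had its lowest group mean there, at 151, and Irf8 had its highest in Rag1-/- GFP- cells. In the keratinocyte, macrophage and plasmacytoid dendritic cell lists 0 of the 7, 7 and 5 markers tested passed between the Rag1-sufficient fractions in limma. At an unadjusted p under 0.05, 2 keratinocyte, 2 macrophage and monocyte and 1 plasmacytoid dendritic cell markers were lower in GFP+ cells, and 1 macrophage and monocyte marker was higher. The part of any of these transcripts in the Stat2 values was not tested.

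Irf7, the factor that amplifies type I interferon production, read 171 and 235 on Rag1-/- GFP+, 208, 270 and 270 on Rag1-/- GFP-, 232 and 194 on Rag1-sufficient GFP+ and 193 and 168 on Rag1-sufficient GFP- arrays. The 3 Rag1-/- GFP- arrays were above both Rag1-sufficient GFP- arrays, a difference of 0.46 ± 0.19 (adjusted p = 0.264, limma). Irf9, the DNA-binding partner of STAT2, spanned only 1.22-fold over the 9 arrays, from 198 to 241, and Irf1, a target of interferon-gamma, spanned 1.61-fold, from 260 to 419. The groups of Irf1 overlapped in all 4 comparisons of single groups. Those of Irf9 lay apart in 2 of them, GFP+ above GFP- cells of Rag1-sufficient mice by 0.18 ± 0.13 (adjusted p = 0.636, limma) and Rag1-/- above Rag1-sufficient GFP- cells by 0.09 ± 0.11 (adjusted p = 0.689, limma).

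Among the nucleic acid sensors, Dhx58, a helicase that tunes the RNA sensors RIG-I and MDA5, had groups that lay apart in every comparison of single groups, with a direction that turned between genotypes. It read 43.1 and 45.9 on Rag1-/- GFP+, 62.5, 58.3 and 58.7 on Rag1-/- GFP-, 56.6 and 55.0 on Rag1-sufficient GFP+, and 44.2 and 47.7 on Rag1-sufficient GFP- arrays. GFP+ cells were thus below GFP- cells in Rag1-/- mice (-0.42 ± 0.07, adjusted p = 0.688, limma) and above them in Rag1-sufficient mice (0.27 ± 0.08, adjusted p = 0.203, limma). Rag1-/- cells were below Rag1-sufficient cells in the GFP+ fraction (-0.32 ± 0.08, adjusted p = 0.341, limma) and above them in the GFP- fraction (0.37 ± 0.07, adjusted p = 0.0993, limma).

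The interaction for Dhx58 was -0.69 ± 0.11, with a 95% interval from -0.95 to -0.44 and an adjusted p of 0.0840 in limma, which did not pass. Without Rag1-/- GFP+ replicate 2, which leaves 1 array in that group, it was -0.74. With array weights the adjusted p was 0.0382 between the Rag1-sufficient fractions and 0.0223 between genotypes in GFP- cells. By its unadjusted p of 1.82e-04 in the analysis of all arrays the interaction ranked 37 of 17445 sets. The lower readings lie close to the filter limit of 41.6, so the size of the difference is approximate. Groups that lay apart in opposite directions in the 2 genotypes were found for 1 of 28 members and for 4.89% of all sets, and in the 2 fractions for 2 members (Dhx58 and Stat2) and 7.77% of all sets.

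The other sensors differed less. Ddx58, which encodes RIG-I, read 268 and 333 on Rag1-/- GFP+, 359, 294 and 294 on Rag1-/- GFP-, 295 and 294 on Rag1-sufficient GFP+, and 279 and 264 on Rag1-sufficient GFP- arrays, and its differences lay between -0.07 and 0.21. Ifih1, which encodes MDA5, read between 41.4 and 56.8, with a difference of -0.24 ± 0.11 between the Rag1-sufficient fractions (adjusted p = 0.421, limma). Zbp1, a sensor of Z-form nucleic acids, read between 108 and 169, its highest value being on Rag1-/- GFP- replicate 3.

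**Figure D3:**
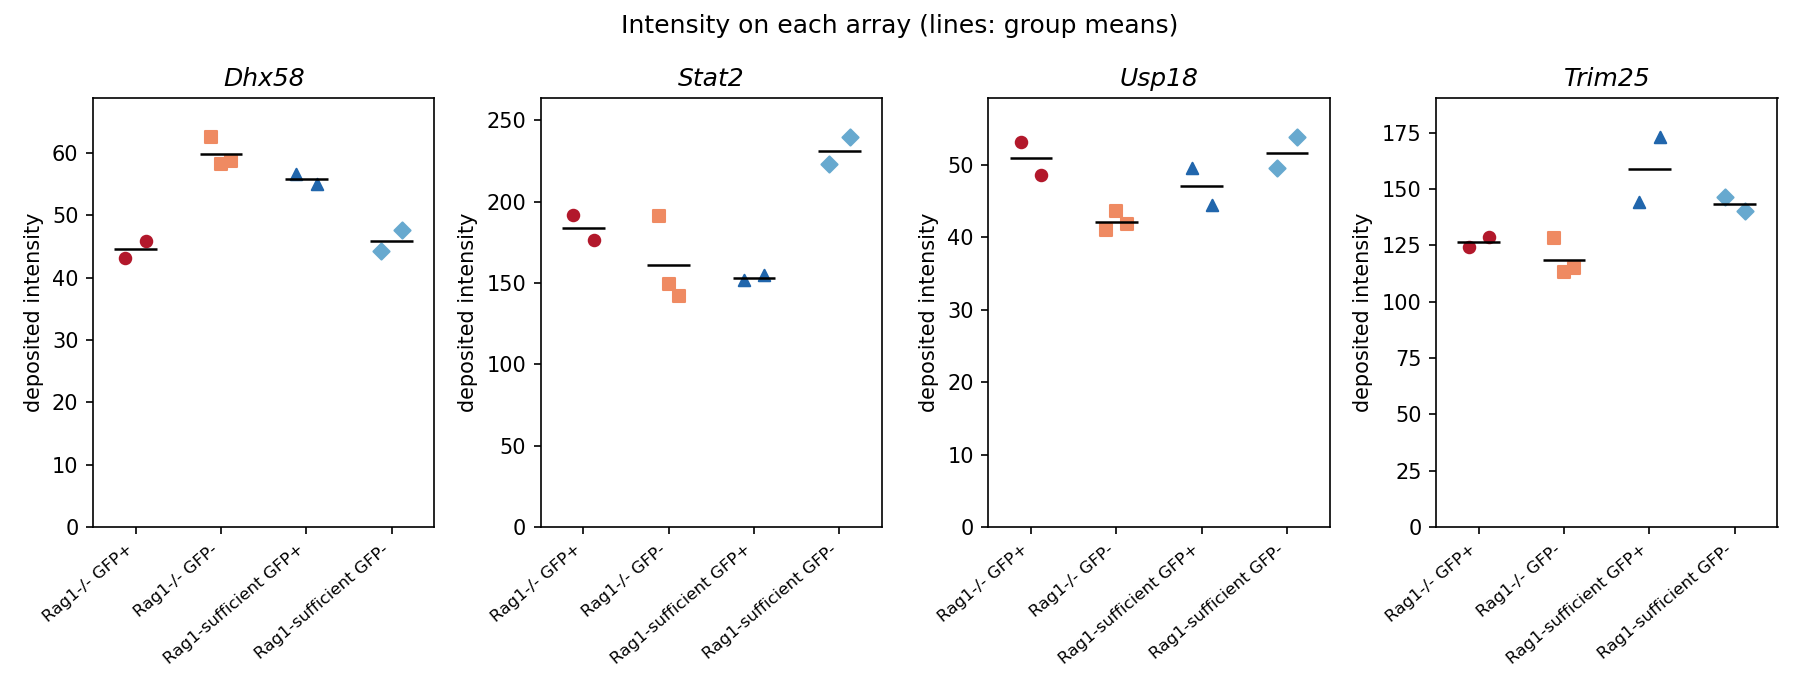
Deposited intensity on each array (points) with the group mean (line) for Dhx58, Stat2, Usp18 and Trim25 in the 4 groups, with axes starting at 0. Dhx58 is lower in the Rag1-/- GFP+ and Rag1-sufficient GFP- groups than in the other groups, Stat2 is highest on the Rag1-sufficient GFP- arrays, and Trim25 is lower on all 5 Rag1-/- arrays than on all 4 Rag1-sufficient arrays.

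In the ISG15 system, Usp18, which strips ISG15 from proteins and damps the type I receptor, read 53.2 and 48.7 on Rag1-/- GFP+, 41.0, 43.6 and 41.9 on Rag1-/- GFP-, 49.6 and 44.5 on Rag1-sufficient GFP+ and 49.5 and 53.8 on Rag1-sufficient GFP- arrays. The Rag1-/- GFP- arrays were the lowest 3 of the 9, at the filter limit. GFP+ differed from GFP- cells of Rag1-/- mice by 0.27 ± 0.08 (adjusted p = 0.688, limma), and Rag1-/- differed from Rag1-sufficient GFP- cells by -0.29 ± 0.08 (adjusted p = 0.185, limma). The interaction was 0.40 ± 0.12 (adjusted p = 0.271, limma).

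Trim25, the ubiquitin ligase that acts on RIG-I, read 124 and 129 on Rag1-/- GFP+, 128, 113 and 115 on Rag1-/- GFP-, 144 and 173 on Rag1-sufficient GFP+ and 147 and 140 on Rag1-sufficient GFP- arrays. All 5 Rag1-/- arrays were below all 4 Rag1-sufficient arrays, which held for 1 member and for 1.66% of all sets in that direction. Averaged over fractions the difference was -0.30 ± 0.08 (adjusted p = 0.252, limma). Herc6, the main ISG15 ligase of the mouse, read between 50.3 and 70.6, and its groups differed by at most 0.23 ± 0.13 in the 4 comparisons of single groups.

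The cells were sorted as CD3-. Transcripts of genes on the T cell marker list were measured in them, and their sum was higher on Rag1-/- arrays. In bulk samples these readings do not show which cells the transcripts came from. The summed intensity of 9 markers was 4152 to 7673 on Rag1-/- GFP+ and 5355 to 7961 on Rag1-/- GFP- arrays, against 3294 to 3986 on Rag1-sufficient GFP+ and 2517 to 2636 on Rag1-sufficient GFP- arrays. Cd3g was the largest part of each sum, at 1831 to 4859 on Rag1-/- and 891 to 1767 on Rag1-sufficient arrays. Not every marker was higher in Rag1-/- cells. Cd8a averaged 58.0 in GFP+ and 54.6 in GFP- cells of Rag1-/- mice, against 59.3 and 64.8 in Rag1-sufficient mice. Averaged over fractions 1 of the 9 passed as higher in Rag1-/- cells. The part of these transcripts in the genotype differences given here was not tested.

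The enzymes that double-stranded RNA switches on spanned at most 1.45-fold over the 9 arrays. Oasl2, an oligoadenylate synthetase-like protein, read 82.3 and 97.4 on Rag1-/- GFP+, 78.7, 77.8 and 70.3 on Rag1-/- GFP-, 72.5 and 78.7 on Rag1-sufficient GFP+ and 86.1 and 72.4 on Rag1-sufficient GFP- arrays. Its Rag1-/- GFP+ arrays were above the Rag1-/- GFP- arrays, by 0.24 ± 0.11 (adjusted p = 0.688, limma), and above the Rag1-sufficient GFP+ arrays, by 0.24 ± 0.12 (adjusted p = 0.768, limma). The first of these differences was 0.12 without Rag1-/- GFP+ replicate 2. Oas2 and Oas3, synthetases that activate RNase L, and Eif2ak2, the kinase PKR that halts translation, spanned 1.45-fold, 1.24-fold and 1.18-fold over the 9 arrays.

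Of the IFIT proteins, which bind foreign RNA, only Ifit1 could be tested. It read 80.4 and 165 on Rag1-/- GFP+, 76.5, 85.5 and 93.8 on Rag1-/- GFP-, 107 and 72.0 on Rag1-sufficient GFP+ and 85.4 and 74.5 on Rag1-sufficient GFP- arrays. Its 2.29-fold span came from Rag1-/- GFP+ replicate 2, while replicate 1 of that group lay among the other arrays, and the difference from Rag1-/- GFP- cells was 0.44 ± 0.28 (adjusted p = 0.689, limma). Ifit3, left out as dim, read 39.1 and 42.1 on Rag1-/- GFP+ arrays and 24.2 to 31.0 on the other 7. Ifit2 stayed between 19.2 and 22.5.

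Among the GTPases, Mx1 and Mx2 read between 16.7 and 24.8 and between 16.8 and 22.2, under the filter limit, and were not tested. Of the guanylate-binding proteins, Gbp3 read 56.7 and 91.5 on Rag1-/- GFP+ arrays and 54.8 to 71.1 elsewhere, and Gbp7 read 94.8 and 144 on Rag1-/- GFP+, 157, 110 and 109 on Rag1-/- GFP-, and 93.5 to 109 on Rag1-sufficient arrays. The groups of Gbp7 overlapped in all 4 comparisons of single groups, and those of Gbp3 in 3. Gbp5 read 22.5 and 24.3 on the Rag1-sufficient GFP+ arrays and 27.0 to 29.5 on all others, below the filter limit throughout.

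Parp9, Dtx3l and Parp14 neighbour each other on chromosome 16, and the first pair forms a ubiquitin ligase complex that enhances interferon responses. Parp9 read 157 and 171 on Rag1-/- GFP+, 186, 156 and 177 on Rag1-/- GFP-, 157 and 137 on Rag1-sufficient GFP+ and 134 and 139 on Rag1-sufficient GFP- arrays. The Rag1-/- GFP- arrays lay above both Rag1-sufficient GFP- arrays, by 0.33 ± 0.12 (adjusted p = 0.231, limma), and averaged over fractions the difference was 0.25 ± 0.09 (adjusted p = 0.407, limma). Dtx3l read 203 to 248 on Rag1-/- GFP- and 171 and 180 on Rag1-sufficient GFP- arrays, also without overlap, at 0.35 ± 0.19. Parp14 spread from 103 to 196 within the Rag1-/- GFP- group alone.

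Rsad2 and Cmpk2, neighbours on chromosome 12, encode the antiviral radical enzyme viperin and a nucleotide kinase that supplies its substrate. Cmpk2 read 46.4 and 70.3 on Rag1-/- GFP+, 71.0, 60.0 and 66.9 on Rag1-/- GFP-, 83.6 and 79.1 on Rag1-sufficient GFP+ and 66.9 and 58.4 on Rag1-sufficient GFP- arrays. The Rag1-sufficient GFP+ arrays were the highest, and Rag1-/- differed from Rag1-sufficient GFP+ cells by -0.50 ± 0.18 (adjusted p = 0.586, limma). This value was -0.21 without Rag1-/- GFP+ replicate 1 and -0.80 without replicate 2, each of which leaves 1 array in that group. The interaction, -0.57 ± 0.24 (adjusted p = 0.350, limma), became -0.87 when Rag1-/- GFP+ replicate 2 was left out. Rsad2 read 55.2 and 57.9 on Rag1-/- GFP+, 51.5, 35.4 and 50.5 on Rag1-/- GFP-, 65.9 and 61.4 on Rag1-sufficient GFP+ and 64.9 and 48.4 on Rag1-sufficient GFP- arrays, with a difference of GFP+ from GFP- cells averaged over genotypes of 0.25 ± 0.13 (adjusted p = 0.753, limma). That difference was 0.14 without Rag1-sufficient GFP- replicate 2 and 0.16 without Rag1-/- GFP- replicate 2.

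Of the remaining effectors, Ifitm3, which restricts viral entry at endosomes, read 390 and 739 on Rag1-/- GFP+, 505, 360 and 383 on Rag1-/- GFP-, 547 and 582 on Rag1-sufficient GFP+ and 584 and 717 on Rag1-sufficient GFP- arrays. All 3 Rag1-/- GFP- arrays were below both Rag1-sufficient GFP- arrays, by -0.65 ± 0.27 (adjusted p = 0.272, limma), while the Rag1-/- GFP+ pair lay on either side of both Rag1-sufficient GFP+ arrays. Ifi35, an interferon-induced leucine zipper protein, read 178 and 212 on Rag1-/- GFP+, 157, 176 and 245 on Rag1-/- GFP-, 222 and 178 on Rag1-sufficient GFP+, and 127 and 144 on Rag1-sufficient GFP- arrays. Its Rag1-sufficient GFP- arrays were the lowest of all, and GFP+ cells of these mice differed from them by 0.56 ± 0.22 (adjusted p = 0.333, limma).

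Isg20, an RNA exonuclease, read 176 and 282 on Rag1-/- GFP+, 208, 221 and 287 on Rag1-/- GFP-, 206 and 152 on Rag1-sufficient GFP+ and 168 and 176 on Rag1-sufficient GFP- arrays, a genotype difference averaged over fractions of 0.39 ± 0.17 (adjusted p = 0.507, limma), which was 0.22 without Rag1-/- GFP+ replicate 2. The genotypes overlapped for this gene. Bst2, the tetherin that holds virions at the cell surface, spanned 1.32-fold and Xaf1, a pro-apoptotic protein, 1.24-fold over the 9 arrays. Rtp4 averaged under the filter limit and read between 29.4 and 43.6.

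**Figure D4:**
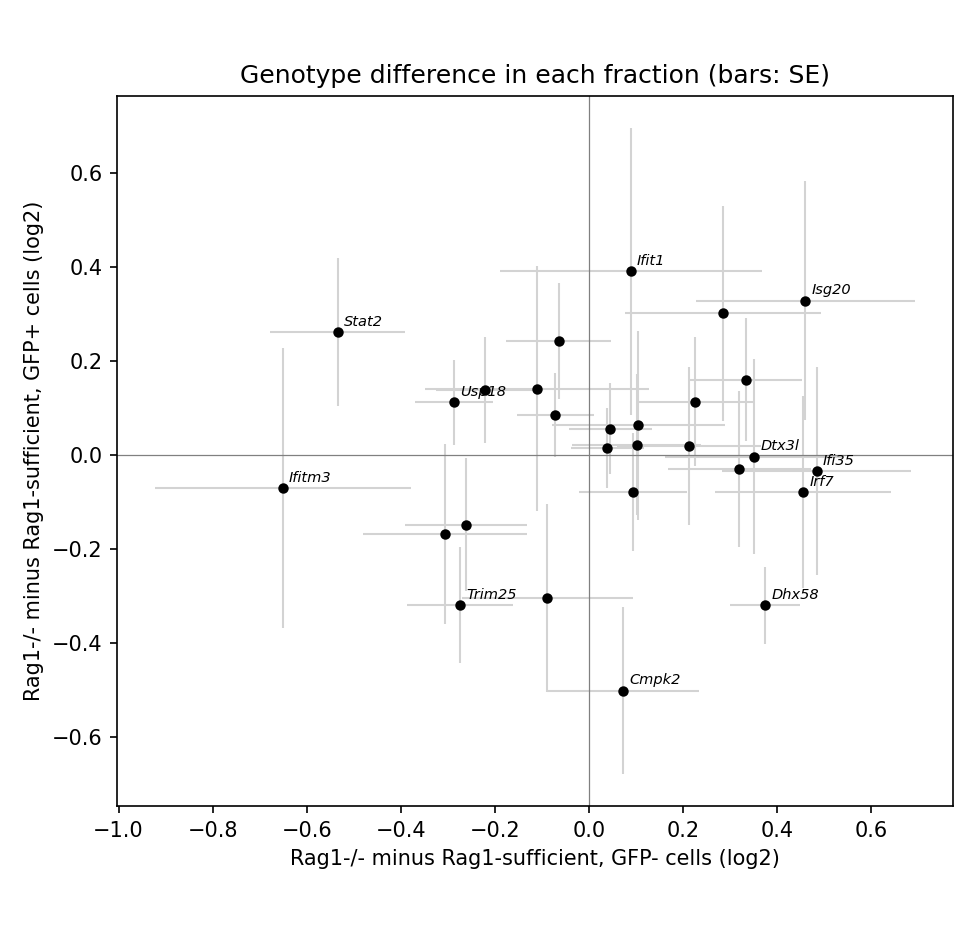
Log2 difference of Rag1-/- from Rag1-sufficient cells for the 28 tested interferon-stimulated genes, in GFP- cells (horizontal) and GFP+ cells (vertical), with SE bars; the 2 axes share no arrays. Trim25 is negative on both axes, and Dhx58 and Stat2 lie in opposite quadrants, at 0.37 and -0.32 for Dhx58 and at -0.53 and 0.26 for Stat2.

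The pair of Rag1-/- GFP+ arrays differed from each other more than the replicates of the other groups did, over all sets and over these genes. Rag1-/- GFP+ replicate 2 was above replicate 1 for 22 of 28 members, with a median difference of 0.17, against 52.2% of all sets and a median of 0.02. The median absolute difference of the members within this pair was 0.24, against 0.15 to 0.18 between the Rag1-/- GFP- arrays, 0.13 for the Rag1-sufficient GFP+ and 0.12 for the Rag1-sufficient GFP- pair. Over all sets the same values were 0.20, 0.14 to 0.17, 0.12 and 0.09. The summed mast cell markers of this pair were 4849 in replicate 1 and 1350 in replicate 2. Other sums were higher in replicate 2: T cell markers at 4152 and 7673, NK cell and ILC1 markers at 555 and 1068, and fibroblast markers at 767 and 1604. The B cell, macrophage, plasmacytoid dendritic cell and neutrophil sums were lower in replicate 2, by less than the mast cell sum. The part of any of these transcripts in the differences of this pair was not tested.

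The wider interferon pathway, taken from 5 further lists with 96 genes tested of 141 listed, likewise held no gene that passed in any comparison. These lists too were chosen with earlier results of these data known. The unadjusted calls numbered 17 higher and 5 lower of 96 in Rag1-/- against Rag1-sufficient GFP- cells (22.9%, against 17.3% of all sets), and 12 higher and 4 lower in GFP+ against GFP- cells of Rag1-sufficient mice (16.7%, against 13.0%). Among the ligands Ifng, the interferon-gamma gene, varied widely between arrays. It read 95.4 and 553 on Rag1-/- GFP+, 149, 196 and 218 on Rag1-/- GFP-, 488 and 375 on Rag1-sufficient GFP+ and 114 and 237 on Rag1-sufficient GFP- arrays. Both Rag1-sufficient GFP+ arrays exceeded both GFP- arrays of these mice, by 1.37 ± 0.69 (adjusted p = 0.464, limma), whereas the Rag1-/- GFP+ arrays lay on either side of the Rag1-/- GFP- arrays. Ifnb1, the interferon-beta gene, stayed between 31.4 and 36.5, below the filter limit, and Ifna14, the ligand with the smallest p, differed by -0.41 ± 0.11 between Rag1-/- and Rag1-sufficient GFP- cells (adjusted p = 0.177, limma).

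The receptor chains were measured on all arrays without a difference that passed. Ifnar1 read between 240 and 362 and Ifnar2 between 412 and 848, while Ifngr1 read between 1858 and 2807 and Ifngr2 between 276 and 535. In the receptor and JAK-STAT list the smallest p belonged to Il10rb, a chain shared by the interleukin-10 and interferon-lambda receptors, whose interaction was -1.09 ± 0.31 (adjusted p = 0.256, limma). For the nucleic acid receptor Tlr9 the difference between Rag1-/- and Rag1-sufficient GFP- cells was -0.29 ± 0.10 (adjusted p = 0.220, limma).

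Of the further targets of type I interferon, Tdrd7, a tudor-domain protein, had the smallest p. It read 69.7 and 75.7 on Rag1-/- GFP+ arrays, against 53.0 and 52.9 on Rag1-sufficient GFP+ arrays, a difference of 0.45 ± 0.09 (adjusted p = 0.165, limma). Among 17 tested targets of interferon-gamma, 7 were higher and 1 lower in Rag1-/- GFP- cells at an unadjusted p under 0.05. Of all sets 17.3% reached this threshold. No target passed after adjustment, where 0.143% of all sets did. The median difference was 0.32, against 0.00 for all sets. These targets were listed with earlier results of these data known, so the counts describe the list without a test. Tapbp, the MHC class I loading factor tapasin, led them over both fractions, at 825 and 922 on Rag1-/- GFP+ and 1045, 1192 and 1155 on Rag1-/- GFP- arrays, against 757 and 619 on Rag1-sufficient GFP+ and 758 and 712 on Rag1-sufficient GFP- arrays. All 5 Rag1-/- arrays were above all 4 Rag1-sufficient arrays, as for 1.32% of all sets, and the difference averaged over fractions was 0.48 ± 0.11 (adjusted p = 0.146, limma).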

How the data were processed

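The values are the deposited intensities of 24922 probe sets on 9 Affymetrix arrays, on a linear scale as the authors gave them and used without further normalization; the submitters' processing notes name MAS5, and the exact settings and genome build are not given in the sources used here. Probe sets were named through the platform annotation: 21425 carried 1 gene symbol, 1399 several and 2098 none. The intensities were set to log2(value + 1), sets in the lowest 30% by mean log2 value were left out, and 17445 remained. All 9 arrays entered 1 limma model (version 3.58.1, R 4.3.3) with the 4 groups and no batch term, and p-values were adjusted over all sets by the Benjamini-Hochberg method. The same code was tested on simulated data.

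Members and gene lists were chosen with earlier results of these data known. Given in full were the 3 members with the smallest p in each comparison; other members are given by role, and each pathway list by its gene with the smallest p and by the receptor chains, Ifng and Ifnb1. Alternatives changed the pseudocount, filter, normalization, array weights, replicate block and single arrays. Replicate numbers were not taken as pairs: deviations of same-numbered arrays correlated between -0.244 and 0.0816. The number of arrays limits the precision.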

Additional observations from a re-analysis of the deposited data

Results flagged for a closer look

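For Dhx58 the fraction difference lay in opposite directions in the 2 genotypes, with arrays that did not overlap in either: GFP+ against GFP- was -0.42 in Rag1-/- and 0.27 in Rag1-sufficient mice. Its genotype difference did likewise between fractions, Rag1-/- against Rag1-sufficient being -0.32 in GFP+ and 0.37 in GFP- cells. The test of this difference, the interaction, had an adjusted p of 0.0840 in limma and did not pass. For Stat2 the genotype difference was 0.26 in GFP+ and -0.53 in GFP- cells, also without overlap, and its interaction had an adjusted p of 0.251 in limma. Such opposite shifts were no more frequent among the members than among all sets. Fraction differences did so for 1 of 28 members and 4.89% of all sets, and genotype differences for 2 of 28 members and 7.77%. Groups of 2 or 3 arrays were too small for a check of single outlying samples.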

How the results depend on the processing

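None of the 21 single-gene differences that were recomputed (the 3 smallest p per comparison) changed direction under an alternative. With array weights, Stat2 (-0.59, adjusted p = 0.0178, limma) and Dhx58 (0.27, adjusted p = 0.0382) passed between the Rag1-sufficient fractions, making 2 members called among 1290 sets, against 0 members and 140 sets in the analysis reported. With the same weights Stat2 (-0.56, adjusted p = 0.0268) and Dhx58 (0.36, adjusted p = 0.0223) passed between Rag1-/- and Rag1-sufficient GFP- cells, making 2 members among 1168 sets, against 0 and 25. These weights were 0.463 for each Rag1-/- GFP+ array and 2.01 for each Rag1-sufficient GFP- array. Without Rag1-/- GFP+ replicate 2 the interaction was -0.74 for Dhx58 and -0.87 for Cmpk2, in a fit that leaves 1 array in that group. Over the arrays left out in turn, the members' median interaction ranged from -0.22 to 0.026. The members' median turned negative without Rag1-/- GFP+ replicate 2, at -0.08 for GFP+ against GFP- in Rag1-/- mice and -0.09 for Rag1-/- against Rag1-sufficient GFP+ cells. The number of calls over all sets moved widely when single arrays were left out, where a group of 2 is left with 1 array. With a replicate block 0 members passed in any of the 7 comparisons, and over all sets 73 passed between the Rag1-sufficient fractions, 2 between genotypes in GFP+ cells and 6 in GFP- cells. The causes were not tested.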
